A study of Mus musculus with 2 samples.

Results

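The 8 genes described here encode proteins that take part in placing N6-methyladenosine (m6A) on RNA, all but Mettl16 in a complex with Mettl3. They are Mettl14, Wtap, Virma, Zc3h13, Rbm15, Rbm15b, Cbll1 and Mettl16, chosen by symbol, and all 8 are among the 32285 genes listed in both count matrices. All 8 are called partners here, and every sum of partners includes Mettl16. The 8 genes were followed in 2 single-cell libraries of mouse pancreatic tumours taken at 6 weeks, by library, by cell group and by cell cycle state. The EL1 library came from FVB/N mice that carry the SV40 large T antigen and firefly luciferase, each driven by the elastase I promoter, which is active in the acinar cells of the pancreas. The WTg library came from EL1 mice crossed with animals that carry the Mettl3 open reading frame driven by CAG, a promoter active in most tissues, and were made in C57BL/6. Every cell of both libraries therefore came from an animal with the T antigen and luciferase transgenes, and strain background and the Mettl3 transgene cannot be told apart. How many animals, and of which sex, went into a library is not stated in the sources used here.

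m6A is the most abundant internal mark of messenger RNA and is read by proteins that alter splicing, export, decay and translation. Mettl3 is the catalytic subunit and Mettl14 its structural partner, which holds the RNA. Wtap joins this core to a larger set of regulators, in which Virma is the scaffold, Zc3h13 keeps the assembly in the nucleus, Rbm15 and Rbm15b bind RNA and bring the complex to sites, and Cbll1, also called Hakai, is a further subunit. Mettl16 is a separate methyltransferase outside this complex. It marks the U6 spliceosomal RNA and the 3′ UTR of Mat2a, the gene of the enzyme that makes S-adenosylmethionine, the methyl donor of every m6A writer.

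The values are unique molecular identifiers (UMIs), each standing for 1 captured RNA molecule, counted at the 3′ end. After barcodes with under 500 genes, under 1000 UMIs or over 20% mitochondrial UMIs were left out, 1113 of 1621 barcodes of EL1 and 905 of 1488 of WTg remained, with medians of 26543 and 34836 UMIs. The libraries shared 15 barcode sequences, of which 0 were among the cells kept. Levels are UMIs in every 1e6 UMIs of the same cells (CPM) with an exact Poisson interval, and ratios are on the log2 scale with an exact conditional binomial interval, both at 95%. These intervals cover counting error only. Each group has 1 library, so there is no replicate error and none of the differences was tested.

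All 8 partners were lower in WTg than in EL1 over all cells, except that Mettl14 was higher when each cell was weighted equally, and Mettl3 was higher. The 8 genes together had 298.7 (293.2 to 304.2) CPM in EL1 and 248.5 (243.2 to 254.0) CPM in WTg, giving a log2 ratio of -0.27 (-0.31 to -0.22). This sum includes Mettl16, which had the lowest ratio of the 8, and no sum without it was made. The median log2 ratio of all 13467 genes with at least 50 UMIs was -0.15, and that of the 8 partners was -0.22. Only 2 of the 8 lay above the median of all genes. Of the 8, 1 was lower by at least 0.5 on the log2 scale, where 19.5% of all genes were, and 0 were higher by as much, where 13.3% were. Among all genes past that size, 59.3% were lower and 40.7% higher, and under the trimmed-mean scaling of edgeR (TMM) 45.3% were lower and 54.7% higher. TMM raised every log2 ratio by 0.11 and brought that of the summed partners to -0.15, and a sum over genes holding under 0.5% of UMIs each brought it to -0.18. Under TMM the 8 ratios ran from -0.53 for Mettl16 to -0.01 for Wtap. The intervals of Virma, Rbm15 and Mettl16 then lay below 0, and those of Mettl14, Wtap, Zc3h13, Rbm15b and Cbll1 held 0.

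Mettl3 itself had 15.1 (13.9 to 16.4) CPM in EL1 and 66.7 (63.9 to 69.5) CPM in WTg, giving a log2 ratio of 2.14 (2.01 to 2.27). The library of the mice with the Mettl3 transgene thus had the higher level. The Mettl3 gene shares 1561 bases with Tox4 on the opposite strand, which was at 47.4 CPM in EL1 and at 41.9 CPM in WTg. Mettl14, the other member of the catalytic pair, had 372 UMIs or 9.80 (8.83 to 10.8) CPM in EL1 and 274 UMIs or 8.30 (7.35 to 9.34) CPM in WTg. Its log2 ratio was -0.24 (-0.47 to -0.01), and it was 0.12 when each cell was weighted equally. Mettl14 lies at chr3:123368297-123386108 on the minus strand (GENCODE M21, GRCm38) and overlaps no other annotated gene.

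**Figure D1:**
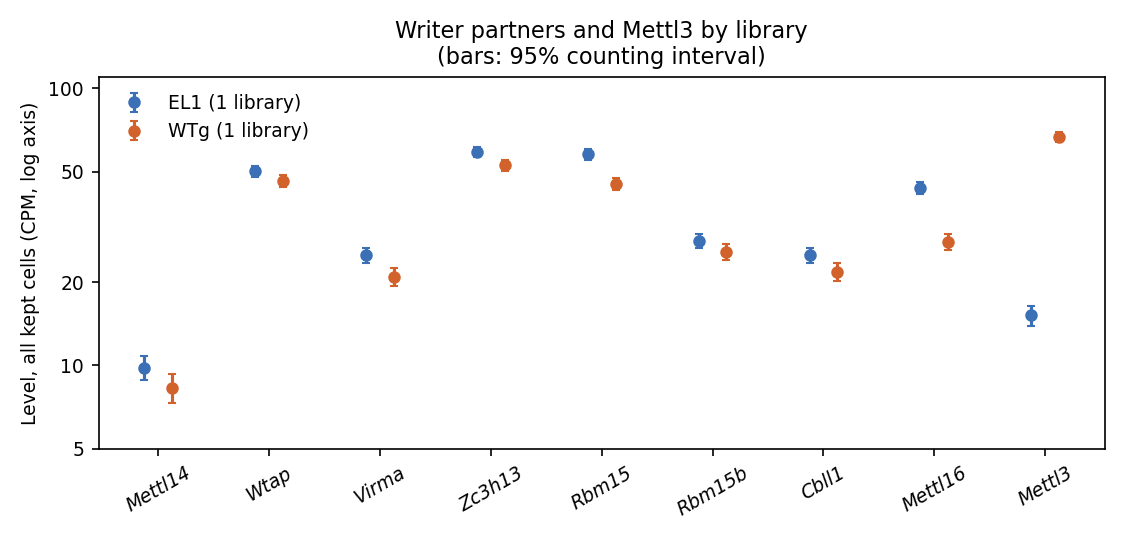
Level of each partner and of Mettl3 over all kept cells, in CPM on a log axis, in the EL1 library (blue) and the WTg library (orange), with 95% counting intervals. Each of the 8 partners sits lower in WTg in these sums (Mettl14 not with cells weighted equally), by the widest gap in Mettl16 (43.7 and 28.0 CPM), and Mettl3 sits higher (15.1 and 66.7 CPM).

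Among the regulators that bind the core, Wtap (chr17:12966796-12994169, minus strand) had 50.3 (48.1 to 52.6) CPM in EL1 and 46.2 (43.9 to 48.5) CPM in WTg. Its log2 ratio of -0.12 (-0.22 to -0.03) lay just above the median of all genes. The last 500 bases of its transcripts match 4 other annotated genes at 95% identity or more over at least 100 bases, the closest being Gm14292 over 383 bases at 99.2%, so reads there could be split or dropped and its level is uncertain. Zc3h13 (chr14:75284373-75344426, plus strand) had 59.1 (56.7 to 61.6) CPM and 52.7 (50.3 to 55.3) CPM, giving a log2 ratio of -0.17 (-0.26 to -0.07).

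Virma (chr4:11485958-11550684, plus strand) had 24.97 (23.4 to 26.6) CPM in EL1 and 20.8 (19.3 to 22.4) CPM in WTg, giving a log2 ratio of -0.26 (-0.41 to -0.12). Cbll1 (chr12:31484829-31499616, minus strand) had 24.9 (23.4 to 26.6) CPM and 21.7 (20.2 to 23.4) CPM, giving a log2 ratio of -0.20 (-0.34 to -0.06). For both genes the counting intervals of the levels lay apart, for Cbll1 by a narrow margin (23.383 CPM at the lower end in EL1 and 23.372 CPM at the upper end in WTg). Each also has an annotated antisense gene within it, Gm11831 in Virma with 9 UMIs in EL1 and 2 in WTg and Gm29542 in Cbll1 with 8 and 6, and whether the counting used strand is not stated.

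Of the RNA-binding adaptors, Rbm15 (chr3:107325421-107333673, minus strand) had 57.7 (55.3 to 60.2) CPM in EL1 and 45.1 (42.9 to 47.5) CPM in WTg. Its log2 ratio of -0.35 (-0.45 to -0.26) was lower than that of every other partner except Mettl16. Its relative Rbm15b (chr9:106880918-106887428, minus strand) had 28.1 (26.5 to 29.9) CPM and 25.7 (24.0 to 27.4) CPM, giving a log2 ratio of -0.13 (-0.26 to -0.00). Rbm15b lies wholly within the span of Manf on the same strand, so its counts are uncertain where exons coincide. Manf, a gene of an endoplasmic reticulum stress protein, was at 527.1 CPM in EL1 and at 515.0 CPM in WTg. The 3′ end of Rbm15b also shares 75 bases with Dcaf1 on the opposite strand, which was at 28.6 CPM in EL1 and at 27.4 CPM in WTg.

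Mettl16 (chr11:74770830-74828525, plus strand) was the partner past 0.5 in size. It had 1658 UMIs or 43.7 (41.6 to 45.8) CPM in EL1 and 923 UMIs or 28.0 (26.2 to 29.8) CPM in WTg, giving a log2 ratio of -0.64 (-0.76 to -0.53). Of all genes tested, 12.3% had a lower ratio. It made up 14.6% (14.0 to 15.3) of the partner UMIs of EL1 and 11.3% (10.6 to 12.0) of those of WTg, a difference of -3.37 percentage points that does not depend on the scaling of the libraries. The other shares moved by between -1.16 points for Rbm15 and 1.74 points for Wtap. With each cell weighted equally the log2 ratio of Mettl16 was -0.39.

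The messenger that Mettl16 is best known to mark is shown here because its level could be read in the same cells. The main Mat2a transcript (Mat2a-201, GENCODE M21) holds 6 copies of the Mettl16 target letters TACAGAGAA or TACAGAAAA, searched on the transcript strand, all of them in its 3′ UTR of 1494 bases. Of 58797 protein-coding transcripts, 5.43% hold at least 1 copy and only those of Mat2a hold 6 or more. Each site is printed as 29 bases of the transcript strand, with the 9 target letters in capitals.
Mat2a site 1, chr6:72434235-72434263: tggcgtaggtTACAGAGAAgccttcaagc
Mat2a site 2, chr6:72433451-72433479: ccttgtgataTACAGAGAAgtcacagggc
Mat2a site 3, chr6:72433272-72433300: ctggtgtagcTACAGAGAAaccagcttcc
Mat2a site 4, chr6:72433157-72433185: atggcgtaagTACAGAGAAgccatcacct
Mat2a site 5, chr6:72433046-72433074: caaggtgtccTACAGAAAAaccttgggtt
Mat2a site 6, chr6:72432938-72432966: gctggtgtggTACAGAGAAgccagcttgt
The match is of letters, and no methylation was measured in these libraries. Mat2a was at 246.4 CPM in EL1 and at 202.4 CPM in WTg, giving a log2 ratio of -0.28 (-0.33 to -0.24), against -0.64 for Mettl16.

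The stretch before the RefSeq start of Mettl16 is given because this partner had the widest library difference. It comes from RefSeq (GRCm38.p6) and covers the 250 bases before the RefSeq start, and its end, with the marked letters, falls inside the longer GENCODE gene. The capitals mark the only letters found there of the 5 sets searched on both strands. These were the CCAAT box (letters CCAAT), a cell cycle homology region written as TTTGAA, its other form with the letters TTTAAA, an ETS site searched as CCGGAAG and the GC box in the form GGGCGG.
Mettl16, chr11:74770613-74770862, plus strand: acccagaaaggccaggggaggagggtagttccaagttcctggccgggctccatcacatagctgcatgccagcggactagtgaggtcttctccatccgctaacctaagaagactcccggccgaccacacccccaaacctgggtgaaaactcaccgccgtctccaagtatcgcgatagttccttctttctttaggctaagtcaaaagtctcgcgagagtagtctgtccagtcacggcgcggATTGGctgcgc
The letters ATTGG are CCAAT read on the other strand, and 33.8% of the 32851 RefSeq windows of this length hold CCAAT on either strand. RefSeq windows matched 6 of the 8 partners.

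The share of cells with a UMI was compared at 1 fixed depth, since deeper cells show more genes. After each cell was thinned to 2000 UMIs, which left out 62 shallower cells of EL1 and 69 of WTg, at least 1 partner UMI was present in 44.3% (41.3 to 47.4) of 1051 cells in EL1 against 36.7% (33.4 to 40.1) of 836 in WTg. The highest shares were those of Wtap and Zc3h13, each at 11.5% (9.65 to 13.6) in EL1 and 8.61% (6.80 to 10.7) in WTg. Mettl14 was seen in 1.71% (1.02 to 2.69) and 1.44% (0.744 to 2.49). Mettl16 was seen in 7.04% (5.57 to 8.76) and 4.90% (3.54 to 6.59), and its intervals overlapped at this depth.

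Without thinning, 93.4% of EL1 cells and 88.6% of WTg cells held at least 1 partner UMI, with a median of 5 different partners per cell in EL1 and 4 in WTg. All 8 partners were seen together in 6.11% and 4.09% of cells, and none in 6.56% and 11.4%. A cell held 10.2 partner UMIs on average in EL1 and 9.06 in WTg. The 10 cells with most UMIs of a partner held between 5.70% and 9.41% of that partner's UMIs in EL1 and between 6.69% and 13.5% in WTg. These genes are used by most cell types, so no gate here served as a background that lacks them.

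Cells were grouped by marker genes. Cells with stromal, immune or red cell markers were set apart, and the rest were split at the pooled median of summed neuroendocrine (NE) markers, 2027.1 CPM, and of summed acinar markers, 84712.7 CPM. The resulting gates are ranges and not cell types. In EL1 5.60% and in WTg 14.2% of the cells split lay within a ratio of 5 to 4 of the NE cut, and 22.0% and 21.1% lay as near to the acinar cut. The NE-high acinar-low gate held 417 EL1 cells and 240 WTg cells, 37.5% and 26.5% of each library, and the NE-low acinar-high gate held 323 and 334, 29.0% and 36.9%. Acinar markers were present throughout, with a median of 44276 CPM in EL1 and 46909 CPM in WTg in the NE-high acinar-low gate against 131910 and 138346 CPM in the NE-low acinar-high gate. The epithelial markers of the label had medians of 14357 and 13515 CPM in the NE-high acinar-low gate and of 9847 and 8832 CPM in the NE-low acinar-high gate.

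Within each library, every partner had a higher level in the NE-high acinar-low gate than in the NE-low acinar-high gate. The summed partners had 359.0 (348.3 to 369.9) CPM against 248.9 (240.7 to 257.3) CPM in EL1, giving a log2 ratio of 0.53 (0.46 to 0.59), and 317.1 (305.4 to 329.2) CPM against 210.7 (203.1 to 218.6) CPM in WTg, giving a log2 ratio of 0.59 (0.51 to 0.67). The median of all genes was also above 0, at 0.44 in EL1 and 0.53 in WTg, and that of the partners was 0.47 and 0.60. In EL1, 4 of 8 partners were higher by at least 0.5, where 44.3% of all 11366 genes were, and 0 were lower by as much, where 3.99% were. In WTg, 4 of 8 were higher, where 52.7% of all 11023 genes were, and 0 were lower, where 4.46% were. These shares of the partners were near the background.

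Virma, Zc3h13 and Cbll1 had the largest gate ratios in EL1 and, together with Mettl16, in WTg. Zc3h13 had 77.4 (72.5 to 82.6) CPM in NE-high acinar-low cells and 42.1 (38.7 to 45.6) CPM in NE-low acinar-high cells of EL1, giving a log2 ratio of 0.88 (0.73 to 1.03). In WTg it had 71.9 (66.4 to 77.8) CPM and 41.3 (37.98 to 44.9) CPM, giving a log2 ratio of 0.80 (0.63 to 0.97). Virma had log2 ratios of 0.83 (0.60 to 1.06) and 0.75 (0.48 to 1.01), and Cbll1 of 0.84 (0.61 to 1.07) and 0.85 (0.59 to 1.11). These 3 genes were above the median of all genes in both libraries, and their ratios in the libraries lay within each other's counting intervals.

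Wtap, Rbm15 and Rbm15b had smaller gate ratios, between 0.35 and 0.44 on the log2 scale in both libraries, and all 3 lay below the median of all genes. Mettl14, with the fewest UMIs, had 0.55 (0.18 to 0.93) in EL1 and 0.21 (-0.22 to 0.65) in WTg. Mettl16 differed between the libraries in this ratio. In EL1 it had 45.3 (41.5 to 49.3) CPM in NE-high acinar-low cells and 39.8 (36.5 to 43.2) CPM in NE-low acinar-high cells, giving a log2 ratio of 0.19 (0.01 to 0.36). In WTg it had 38.7 (34.7 to 43.0) CPM and 22.3 (19.8 to 24.9) CPM, giving a log2 ratio of 0.80 (0.57 to 1.02). The counting intervals of the ratios did not overlap, and with 1 library each the difference was not tested.

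**Figure D2:**
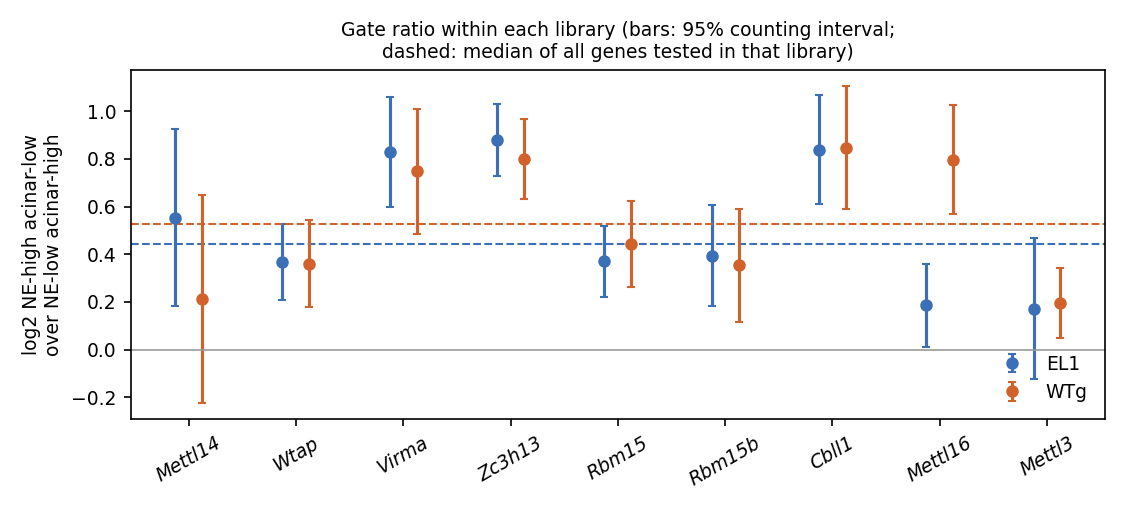
Log2 ratio of the NE-high acinar-low gate over the NE-low acinar-high gate for each partner and Mettl3, in the EL1 library (blue) and the WTg library (orange), with 95% counting intervals and the median of all genes tested as a dashed line per library (0.44 and 0.53). Points of the libraries lie close together for 6 partners, and Mettl16 lies at 0.19 in EL1 and 0.80 in WTg.

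The library comparison was then made inside the gates. In NE-high acinar-low cells the summed partners had a log2 ratio of WTg over EL1 of -0.18 (-0.25 to -0.11), where the median of all 11350 genes was -0.09. All 8 were below 0, between -0.36 for Mettl14 and -0.11 for Zc3h13. None of the 8 was lower by at least 0.5, where 15.9% of all genes were, and none was higher by as much, where 9.96% were. With the marker cuts set within each library, the ratio of the sum was -0.27, and over genes holding under 0.5% of UMIs each it was -0.12.

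In NE-low acinar-high cells the summed partners had a log2 ratio of -0.24 (-0.31 to -0.17), where the median of all 11023 genes was -0.19. Here 1 of 8 was lower by at least 0.5, where 23.9% of all genes were, and 0 were higher, where 10.5% were. That gene was Mettl16, with 39.8 (36.5 to 43.2) CPM in EL1 and 22.3 (19.8 to 24.9) CPM in WTg and a log2 ratio of -0.84 (-1.04 to -0.63). Rbm15 followed with -0.36 (-0.52 to -0.19), and the other 6 lay between -0.16 and -0.02, each with an interval that held 0. These 6 lay above the median of all genes, and no sum without Mettl16 was made.

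Mettl16 was lower in WTg in the 2 remaining epithelial gates too. In cells high for both marker sums it had 42.3 (37.2 to 47.9) CPM and 26.8 (23.1 to 30.8) CPM, giving a log2 ratio of -0.66 (-0.94 to -0.38). In cells low for both it had 53.5 (47.7 to 59.8) CPM and 35.6 (27.7 to 45.0) CPM, giving a log2 ratio of -0.59 (-0.99 to -0.21). In NE-high acinar-low cells the difference was smaller, -0.23 (-0.43 to -0.03). Mat2a had log2 ratios of 0.07 (-0.00 to 0.15) in NE-high acinar-low cells, -0.23 (-0.31 to -0.15) in NE-low acinar-high cells, -0.21 (-0.33 to -0.10) in cells high for both and -0.46 (-0.60 to -0.32) in cells low for both. The cells low for both marker sums had a median of 24429.5 UMIs in EL1 and 4380.5 UMIs in WTg, and the part of this depth gap in the values of that gate was not tested.

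**Figure D3:**
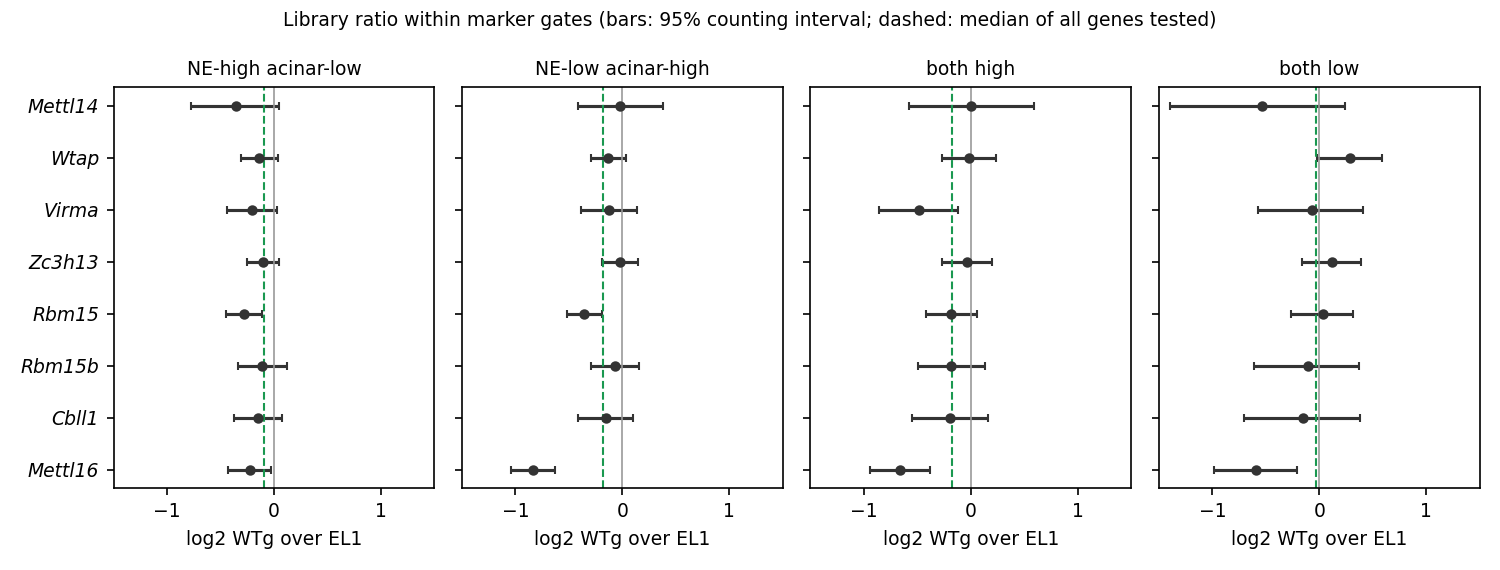
Log2 ratio of WTg over EL1 for each partner in the 4 epithelial gates, with 95% counting intervals, a solid line at 0 and a dashed line at the median of all genes tested in that gate. Mettl16 lies to the left of 0 in every panel, between -0.84 and -0.23, and the other partners mostly have intervals that reach 0.

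Macrophages, the largest group of cells other than epithelial cells, numbered 28 in EL1 and 43 in WTg. Their summed partners had 129 UMIs in EL1 and 227 in WTg, giving a log2 ratio of -0.26 (-0.58 to 0.06). Zc3h13 had 44 UMIs or 88.3 (64.1 to 118.5) CPM and 50 UMIs or 47.7 (35.4 to 62.8) CPM, giving a log2 ratio of -0.89 (-1.503 to -0.27). For each of the other 7 partners the interval of the ratio held 0, so at these counts no difference could be seen. Mat2a had 137 UMIs in EL1 macrophages and 104 in those of WTg, giving a log2 ratio of -1.47 (-1.85 to -1.09). Mettl16 had 10 and 14 UMIs in the same cells. Neutrophils, T or NK cells and B cells together, pooled after their small numbers were seen, gave 417.5 (294.0 to 575.5) CPM for the summed partners in 21 cells of EL1 and 305.7 (221.3 to 411.8) CPM in 27 cells of WTg.

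Cell cycle state was called from 43 S and 54 G2M genes, none of them a partner, in cells thinned to 2000 UMIs. In EL1 59.0% of cells were called G1, 23.0% S and 17.98% G2M, and in WTg 54.9%, 24.6% and 20.5%. With scores set against detected genes only, the S calls were 42.7% in EL1 and 42.5% in WTg. The scores used here were set against all listed genes after such other S shares had been seen. Mki67, a proliferation marker that is 1 of the G2M genes, had 19.5, 78.3 and 477.2 CPM in the G1, S and G2M calls of EL1 and 12.5, 106.4 and 490.5 CPM in those of WTg. Levels of the partners were then summed over all UMIs of the cells called.

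The summed partners were higher in G2M calls than in G1 calls, at a larger ratio in WTg. The summed partners had 285.9 (278.4 to 293.5) CPM in G1, 294.6 (283.7 to 305.9) CPM in S and 328.0 (316.4 to 339.9) CPM in G2M calls of EL1. In WTg they had 221.3 (214.2 to 228.5) CPM, 254.2 (243.2 to 265.5) CPM and 297.7 (286.0 to 309.7) CPM. The log2 ratio of G2M over G1 was 0.20 (0.13 to 0.26) in EL1 and 0.43 (0.35 to 0.50) in WTg, where the medians of all genes were 0.08 over 11819 genes and 0.16 over 11674. In EL1 6 of 8 partners were above 0 and in WTg 8 of 8. By at least 0.5, 0 of 8 were higher in EL1, where 18.2% of all genes were, and 2 of 8 in WTg, where 22.3% were. None was lower by as much in either library, where 7.55% and 8.38% of all genes were.

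Median UMIs per cell were 24252 in G1 and 39548 in G2M calls of EL1 and 35156 and 39824 in those of WTg, and the part of depth in these ratios was not tested. The summed NE markers had 4784 CPM in G1 and 3284 CPM in G2M calls of EL1 and 2831 and 3186 CPM in those of WTg, and NE-high acinar-low cells made up 39.8% and 31.7% of those calls in EL1 and 23.3% and 32.7% in WTg. The NE-high share was thus lower in G2M in EL1 and higher in WTg, and its part in the difference between the libraries was not tested. The summed acinar markers, which take up UMIs that other genes would fill, had 98227 CPM in G1 and 81666 CPM in G2M calls of EL1 and 111587 and 91105 CPM in those of WTg. When levels were taken over the UMIs of genes holding under 0.5% each, which leaves out 25 genes, the ratio of the summed partners was 0.084 in EL1 and 0.32 in WTg. Within the NE-low acinar-high gate the ratio was 0.32 (0.20 to 0.44) in EL1 and 0.38 (0.25 to 0.51) in WTg, and within the NE-high acinar-low gate 0.17 (0.06 to 0.28) and 0.28 (0.15 to 0.40). In cells low for both marker sums it was -0.12 (-0.27 to 0.03) in EL1 and 0.35 (0.05 to 0.65) in WTg. In cells high for both it was 0.19 (-0.00 to 0.37) in EL1 and 0.39 (0.21 to 0.56) in WTg. The medians of all genes within these gates lay between 0.01 and 0.19.

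Rbm15 and Mettl14 were the 2 partners past 0.5 in WTg, a share of the partners near the 22.3% of all genes. Rbm15 had 35.1 (32.3 to 38.004) CPM in G1, 48.8 (44.0 to 53.9) CPM in S and 62.0 (56.7 to 67.6) CPM in G2M calls of WTg, giving a log2 ratio of G2M over G1 of 0.82 (0.65 to 0.996). In EL1 it had 51.9 (48.7 to 55.2) CPM, 62.7 (57.7 to 68.0) CPM and 64.6 (59.5 to 70.0) CPM, giving a log2 ratio of 0.32 (0.17 to 0.46). The levels of Rbm15 thus lay apart between libraries in G1 and together in G2M, with log2 ratios of WTg over EL1 of -0.57 (-0.71 to -0.42) in G1, -0.36 (-0.55 to -0.17) in S and -0.06 (-0.23 to 0.11) in G2M calls. Mettl14 had 6.83 (5.64 to 8.20) CPM in G1 and 11.8 (9.53 to 14.4) CPM in G2M calls of WTg, giving a log2 ratio of 0.78 (0.38 to 1.19), and 9.29 (7.98 to 10.8) CPM and 11.8 (9.70 to 14.3) CPM in those of EL1, giving a log2 ratio of 0.35 (-0.01 to 0.70). The intervals of the G2M over G1 ratio did not overlap between libraries for Rbm15 and overlapped for Mettl14, and neither difference was tested.

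Rbm15 also had a ratio of G2M over G1 above 0 in 7 of the 8 combinations of library and epithelial gate. It was 0.39 (0.13 to 0.65) in EL1 and 0.75 (0.44 to 1.06) in WTg for NE-high acinar-low cells and 0.23 (-0.06 to 0.50) and 0.60 (0.30 to 0.89) for NE-low acinar-high cells. The exception was EL1 cells low for both marker sums, at -0.01 (-0.35 to 0.34). The region before its start is printed from RefSeq (GRCm38.p6) because Rbm15 had the largest ratio of G2M over G1 of the 8 partners over all cells of WTg, while in EL1 Mettl14 had a larger one. The 250 bases lie before the RefSeq start and inside the longer GENCODE gene, and the capitals mark letters of the same 5 sets.
Rbm15, chr3:107333290-107333539, minus strand: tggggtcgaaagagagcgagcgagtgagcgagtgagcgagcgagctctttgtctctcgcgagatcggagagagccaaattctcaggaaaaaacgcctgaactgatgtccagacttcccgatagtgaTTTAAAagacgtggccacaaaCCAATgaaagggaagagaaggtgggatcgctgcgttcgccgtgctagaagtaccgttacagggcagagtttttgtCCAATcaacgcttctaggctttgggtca
CCAAT begins 103 and 28 bases before the start and TTTAAA, which reads the same on both strands, begins 124 bases before it. Over all windows, 33.8% hold CCAAT and 12.1% hold TTTAAA, and among the 6 partners with a window TTTAAA was found in Rbm15. It was also found in the window of Mettl3, 140 bases before the start. In EL1, which lacks the Mettl3 transgene, the log2 ratio of G2M over G1 of Mettl3 was -0.16 (-0.46 to 0.13). These are matches of letters, and no binding was measured.

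**Figure D4:**
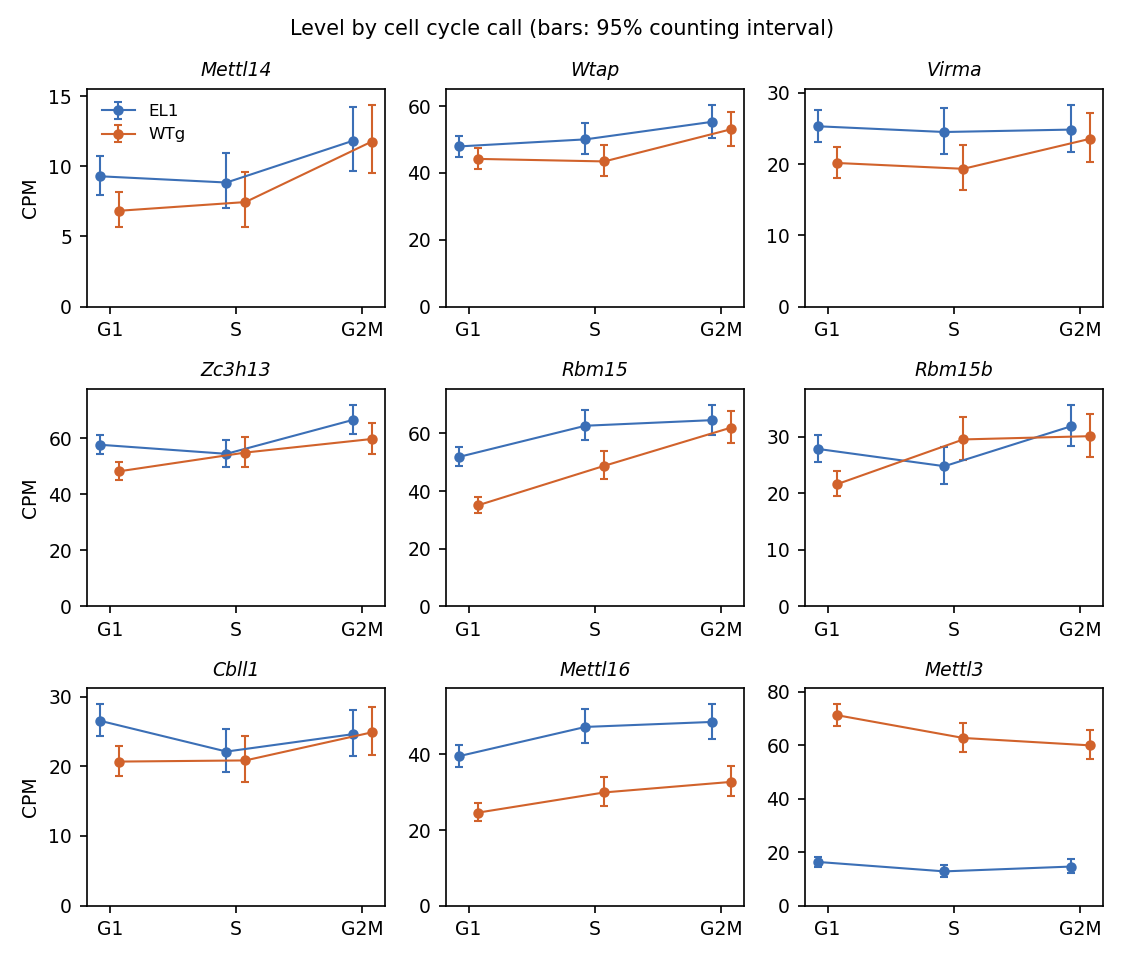
Level of each partner and of Mettl3 in cells called G1, S and G2M, in CPM on axes that start at 0, for the EL1 library (blue) and the WTg library (orange), with 95% counting intervals. The Rbm15 lines meet in G2M (64.6 and 62.0 CPM) and lie apart in G1 (51.9 and 35.1 CPM), the Mettl16 lines stay apart in all 3 calls, and Mettl3 in WTg is lower in G2M (60.0 CPM) than in G1 (71.3 CPM).

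Mettl16 was higher in G2M than in G1 by 0.30 (0.13 to 0.47) in EL1 and 0.41 (0.18 to 0.64) in WTg, and its library ratio was nearly the same in each state. That ratio was -0.68 (-0.86 to -0.51) in G1, -0.66 (-0.89 to -0.43) in S and -0.57 (-0.79 to -0.35) in G2M calls. Mat2a had 218.7 CPM in G1 and 298.9 CPM in G2M calls of EL1, giving a log2 ratio of 0.45 (0.38 to 0.52), and 161.1 and 265.1 CPM in those of WTg, giving a log2 ratio of 0.72 (0.64 to 0.80).

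Wtap and Zc3h13 had ratios of G2M over G1 between 0.21 and 0.31 in both libraries, with intervals above 0. Rbm15b had 27.9 (25.6 to 30.3) CPM in G1 and 31.9 (28.3 to 35.7) CPM in G2M calls of EL1, giving a log2 ratio of 0.19 (-0.02 to 0.40), and 21.6 (19.5 to 24.0) CPM and 30.1 (26.5 to 34.1) CPM in those of WTg, giving a log2 ratio of 0.48 (0.24 to 0.72). Virma and Cbll1 had -0.03 (-0.26 to 0.20) and -0.11 (-0.34 to 0.12) in EL1 and 0.22 (-0.04 to 0.48) and 0.27 (0.01 to 0.52) in WTg. Mettl3 went the other way in WTg, with 71.3 (67.3 to 75.5) CPM in G1 and 60.0 (54.8 to 65.6) CPM in G2M calls and a log2 ratio of -0.25 (-0.40 to -0.10). In EL1, which lacks the Mettl3 transgene, the log2 ratio of Mettl3 was -0.16 (-0.46 to 0.13), and that interval held 0. The part of the transgene in the WTg values of Mettl3 was not tested.

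The balance of Mettl3 to its partners does not depend on how a library is scaled. There were 0.0507 Mettl3 UMIs per partner UMI in EL1 and 0.268 in WTg, giving a log2 ratio of 2.40 (2.26 to 2.54). Per Mettl14 UMI, there were 1.55 Mettl3 UMIs in EL1 and 8.03 in WTg, giving a log2 ratio of 2.38 (2.11 to 2.64). How fully 3′ counting sees transcripts of the transgene, which holds the open reading frame, is not known.

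The log2 ratio of this balance was 2.41 (2.16 to 2.66) in NE-high acinar-low cells, 2.44 (2.21 to 2.68) in NE-low acinar-high cells, 2.34 (1.96 to 2.73) in cells high for both and 2.65 (2.29 to 3.02) in cells low for both, and each interval overlapped the others. In macrophages there were 4 Mettl3 UMIs to 129 partner UMIs in EL1 and 21 to 227 in WTg, giving a log2 ratio of 1.58 (-0.04 to 3.61).

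**Figure D5:**
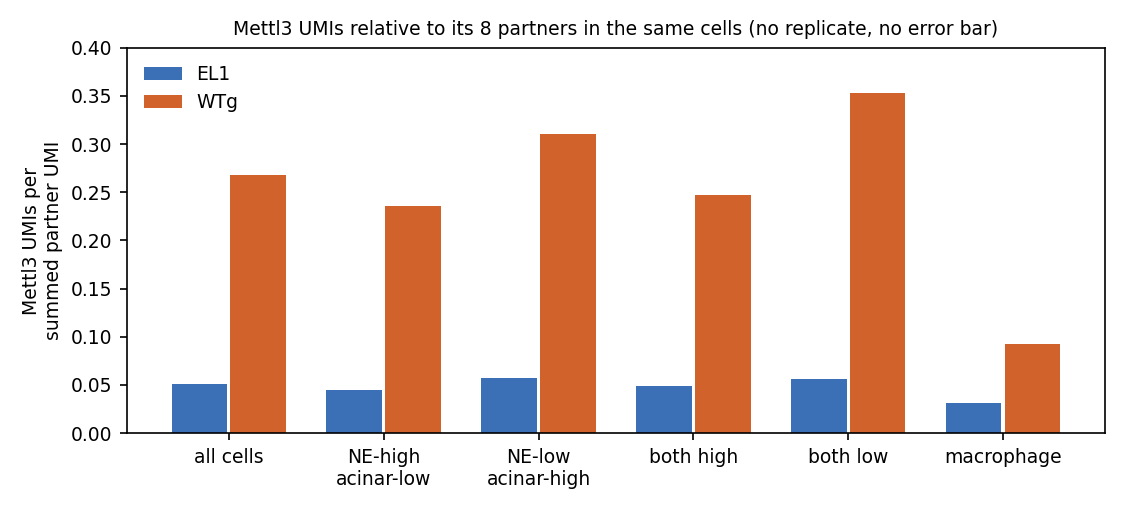
Mettl3 UMIs per summed partner UMI in all cells, in the 4 epithelial gates and in macrophages, for the EL1 library (blue) and the WTg library (orange). The bars lie between 0.0310 and 0.0570 in EL1 and between 0.0925 and 0.353 in WTg, lowest in both libraries in macrophages, where counts are few.

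Cells of WTg were also compared by whether a Mettl3 UMI remained after thinning, which was the case in 104 of 836 cells. Taken at full depth, those 104 cells had 294.8 CPM of the summed partners against 242.7 CPM in the 732 cells without, giving a log2 ratio of 0.28 (0.18 to 0.38), where the median of all genes was 0.10. Zc3h13 had 71.7 CPM against 50.4 CPM, giving a log2 ratio of 0.51 (0.31 to 0.70), and Rbm15 58.9 CPM against 43.4 CPM, giving a log2 ratio of 0.44 (0.22 to 0.66). For the other 6 partners the interval held 0. In EL1 only 29 of 1051 cells had such a UMI, and the summed partners had 320.0 CPM in them against 297.9 CPM, giving a log2 ratio of 0.10 (-0.09 to 0.29). The cells with a Mettl3 UMI had lower medians of UMIs, 29551.5 against 37262 in WTg and 21411 against 28419.5 in EL1, and the part of depth and cell group in these values was not tested.

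Each partner's levels were set beside those of 8894 genes with at least 500 UMIs, over 10 groups made of the 2 libraries and 5 gates. These groups share libraries, depth and the gate markers, and each r named is the highest of many over 10 points, so the correlations are descriptions. The groups include the macrophages of each library, which held 1 and 5 UMIs of Mettl14 and 7 and 18 of Rbm15b in EL1 and WTg. The part of these few counts in r was not tested. Rbm15 was most like Tubgcp3, of the gamma-tubulin complex (r = 0.993), Gabpb2 (r = 0.988) and Lbr, the lamin B receptor (r = 0.984). Mettl16 was most like Snhg1 (r = 0.989), Mrto4 (r = 0.982) and Dnajc9 (r = 0.981). Mettl14 was most like Lgr4 (r = 0.991), Rbm15b most like Arl3 (r = 0.992), Wtap most like Akirin2 (r = 0.977), Zc3h13 most like Tbck (r = 0.969), Virma most like Oaz2 (r = 0.966) and Cbll1 most like Fbxw7 (r = 0.952). Over the 28 pairs of partners r ran from -0.389 to 0.921 with a median of 0.383, and with Mettl3 it ran from -0.207 for Cbll1 to 0.382 for Mettl14.

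Genes around the writers were read from 3 lists. Of 16 erasers and readers of m6A, 15 had at least 50 UMIs, 2 were lower in WTg by at least 0.5 and 0 higher, where 19.5% and 13.3% of all genes were, and their median log2 ratio was -0.13. The lowest was Alkbh5, an m6A demethylase, at 147.2 CPM in EL1 and at 86.3 CPM in WTg, giving a log2 ratio of -0.77 (-0.84 to -0.70). The highest was Rbmx, with 20.02 and 25.9 CPM and a log2 ratio of 0.37 (0.23 to 0.51), and the most abundant was Hnrnpa2b1, with 556.8 and 468.6 CPM and a log2 ratio of -0.25 (-0.28 to -0.22).

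Of 14 other RNA methyltransferases and their cofactors, 2 were lower by at least 0.5 and 0 higher, where 19.5% and 13.3% of all genes were, with a median of -0.28. Mettl4 was the lowest at -0.67 (-0.88 to -0.47), Mettl1, which makes 7-methylguanosine, the highest at 0.38 (0.30 to 0.46), and Fbl, the fibrillarin of the nucleolus, the most abundant at -0.03 (-0.10 to 0.04). Of 10 genes that supply or use up S-adenosylmethionine, 5 were lower by at least 0.5, where 19.5% of all genes were, and 1 higher, where 13.3% were, with a median of -0.40 against -0.15 for all genes. Under TMM, which adds 0.11 to each ratio, the balance of lower and higher calls over all genes turns round, as given above. Ahcy, which clears the product of methylation, was at 84.2 CPM in EL1 and at 49.3 CPM in WTg, giving a log2 ratio of -0.77 (-0.86 to -0.69). Nnmt was the highest, with 10 UMIs in EL1 and 60 in WTg and a log2 ratio of 2.79 (1.81 to 3.92), and Mat2a, given above with Mettl16, was the most abundant.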

How the data were processed

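Single-cell libraries of EL1 and WTg pancreatic tumours (1 each, 10x 3′ chemistry) were deposited as a matrix of UMI counts (genes by barcodes), written by Cell Ranger 6.0.2 per the file headers, on a mouse GRCm38 build per the labels. Whether intronic reads were counted is not given in the sources used here. The sparse count matrices were read in Python 3.11.15, and barcodes were kept from 500 genes and 1000 UMIs upwards where mitochondrial UMIs did not pass 20%. UMIs were summed over cells, and the floor of 3 counts was 0.0790 CPM (EL1) or 0.0909 CPM (WTg). Genes with at least 50 UMIs over the cells compared entered medians and shares past a log2 ratio of 0.5, with 3 counts in place of 0. Gates needed at least 20 cells per library. Phases used the lists of Seurat 5.3.0 (R 4.3.3). The scores followed scanpy 1.11.5 without its random draw of control genes, against all other genes of the lists' bins among 25 level bins. Thinning used 1 fixed seed. TMM came from edgeR 4.0.16, and no test was run with it. No doublets were removed. Scrublet at an expected rate of 2% called 4 cells in each library. Positions are from GENCODE M21 and sequences from GENCODE M21 and RefSeq.

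Named genes were all 8 partners and Mettl3, for each list the highest, lowest and most abundant gene, and for each partner the genes of highest Pearson r of log2(CPM + 1). Partners and lists were chosen with earlier results of these data known. Ratios, intervals and phases were tested on simulated counts, and thinning on the EL1 counts. The simulated counts had sampling error only and clear-cut phases, so they do not show how well real cells were called.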

Additional observations from a re-analysis of the deposited data

How the results depend on the processing

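The direction of the library ratios of the summed partners (all cells and 2 gates), of Mettl3 and of their balance over all cells, and of G2M over G1 of the summed partners, was the same under the alternatives run for each: other cell filters, the dense count table, doublets or cells of very many genes removed, other scalings, other gate cuts, other thinning depths and each cell weighted equally. Of 200 values recomputed, 1 changed sign: Mettl14 of WTg over EL1, at 0.12 with each cell weighted equally. A further 44 moved past their counting interval, or by over 0.1 for the median of a list, 34 of them shares of cells at another thinning depth. Not all of the 200 were open to a change of sign, since shares of cells cannot fall below 0. The balance of Mettl3 to its partners cannot move under TMM or over genes under 0.5% of UMIs. The dense count table and the removal of cells of very many genes gave the same values, so they count as 1 check. The log2 ratio of the summed partners over all cells moved to -0.15 under TMM and -0.18 over genes under 0.5% of UMIs, and ran from -0.28 to -0.15 over 10 alternatives. In NE-high acinar-low cells it moved to -0.27 with cuts set within each library. G2M over G1 moved to 0.084 in EL1 and 0.32 in WTg over genes under 0.5% of UMIs. The share of cells with a partner UMI follows depth by construction and was 27.9% in EL1 and 22.7% in WTg at 1000 UMIs and 75.8% and 67.4% at 5000 UMIs. Mettl16 of WTg over EL1 ran from -0.67 to -0.39. Level bins made over detected genes, the library ratios without stromal, immune and red cell gates, and the removal of the 10 cells with most UMIs were chosen after seeing the data. The bins over all listed genes used for the main phase calls were also chosen after bins over detected genes had given other S shares. No paired analysis was possible because there was 1 library on each side and no replicate number to pair by. With no replicate, the spread between animals is not known, and low counts limit the values of macrophages, of the other immune cells and of Mettl14.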

Other observations

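The barcodes that the cell filter removed, 508 of EL1 and 583 of WTg, held 314 and 362 partner UMIs. The summed partners had 259.4 (231.5 to 289.8) CPM in those of EL1 and 194.2 (174.7 to 215.2) CPM in those of WTg, giving a log2 ratio of -0.42 (-0.64 to -0.20), where the median of 5203 genes was -0.18. Mettl16 had 34.7 (25.01 to 46.9) CPM and 17.2 (11.7 to 24.2) CPM, giving a log2 ratio of -1.02 (-1.73 to -0.32), Rbm15 57.0 (44.4 to 72.1) CPM and 33.8 (26.0 to 43.2) CPM, giving a log2 ratio of -0.75 (-1.27 to -0.24), and Zc3h13 82.6 (67.2 to 100.5) CPM and 55.8 (45.6 to 67.6) CPM, giving a log2 ratio of -0.57 (-0.98 to -0.16). These were the partners whose interval lay below 0. Wtap had 24.8 (16.7 to 35.4) CPM and 33.8 (26.0 to 43.2) CPM, with an interval of the ratio from -0.20 to 1.13.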
